A study of Mus musculus with 38 samples.

Results

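The 10 genes described here are classical markers and regulators of the epithelial-mesenchymal transition: Cdh1 and Epcam, Cdh2, Vim, Fn1, and the transcription factors Snai1, Snai2, Zeb1, Zeb2 and Twist1. Members were chosen by name, as probes that were not controls and whose gene name in the array files was one of the 10 or an older synonym (Zfhx1a for Zeb1, Zfhx1b for Zeb2, Tacstd1 for Epcam). All 10 genes were found, with 18 of the 41174 probes, among 28783 gene names. The rule itself used names and no measured value.

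The transition is the program by which epithelial cells loosen their junctions and take on a motile, mesenchymal form. E-cadherin (Cdh1) and the adhesion molecule Epcam hold epithelial cells together, whereas N-cadherin (Cdh2), the intermediate filament vimentin (Vim) and the matrix protein fibronectin (Fn1) mark mesenchymal cells. Snail, Slug, Zeb and Twist factors bind DNA at E-boxes, and Snail and Zeb factors are known to repress Cdh1. Mammary tumors of the MMTV-PyMT model are epithelial, and the paper describes them as luminal-type at first and basal-like after malignant progression. Vimentin, fibronectin and Zeb2 are also made by macrophages and other host cells.

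Tumors arose from hyperplasias of MMTV-PyMT;actin-GFP mice that were transplanted into FVB/n hosts, and GFP-positive cells were sorted for RNA. In all groups the PyMT oncogene was under the MMTV promoter, which is active in mammary epithelium, and GFP under an actin promoter, which is not restricted to epithelium. The progression experiment comprised 5 adenomas, 6 carcinomas, 6 samples of disseminated tumor cells and 5 samples of metastases, all without drug. Disseminated cells were sorted from tumor-bearing lungs, with several mice pooled per sample, and metastases from lungs after the primary tumor had been removed. The chemotherapy experiment comprised 6 untreated tumors (labeled Control), 6 residual tumors after the first dose of docetaxel, doxorubicin and cyclophosphamide (labeled Regressed tumor) and 4 relapsed tumors after the fourth dose (labeled Resistant tumor), with treatment begun 2 months after transplantation. The labels did not say whether the samples of a group came from separate animals, so the p-values measure only the spread between these samples.

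Every value is a log2 ratio of the sample (Cy5) to a Universal mouse reference RNA (Cy3) on the same array, without a dye swap. A value of 0 is a signal as bright as the reference and not absence, and the level of one gene cannot be set against that of another. The sample channel was well above background at 47.6–78.3% of probes in the progression experiment and 49.9–63.7% in the chemotherapy experiment. Adenoma was the lowest progression group, with a median of 60.8% against 69.5–73.9% in the others. Carcinoma and metastases shared 3 slides, and adenoma and disseminated cells shared 3 others that were scanned on another day, so that in the other 4 comparisons between progression groups slide and scan day cannot be told apart from group. In the chemotherapy experiment, a slide held untreated tumors alone and another held residual tumors alone. Each pair of groups shared a single slide there, so slide can be told apart from group only in part. Carcinoma replicate 6 correlated with the other carcinomas at a median of 0.760 across genes, where those had 0.939–0.959. Its label was kept, and the calls against carcinoma are given without it as well. Other arrays also stood apart from their group. Disseminated replicates 6 and 4 had medians of 0.710 and 0.776, where the rest of that group had 0.835–0.851. Metastases replicate 4 had 0.776, where the other metastases had 0.846–0.889. A call required a log2 change of at least 1 and a p, adjusted over all gene names, below 0.05.

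The promoters of Epcam, Snai1 and Vim are shown because E-boxes are the DNA letters that Snail and Zeb factors recognize. Epcam was not called in any comparison. Zeb2, the member with the largest change, and Twist1 also had windows, which are not printed. The sequences are RefSeq windows of 300 bases in build GRCm38.p6 that span the annotated start, printed 5′ to 3′ on the strand of the gene. Capitals mark the letters CACCTG or CAGGTG, which are each other's reverse complement.
Epcam, chr17:87635729-87636028, plus strand: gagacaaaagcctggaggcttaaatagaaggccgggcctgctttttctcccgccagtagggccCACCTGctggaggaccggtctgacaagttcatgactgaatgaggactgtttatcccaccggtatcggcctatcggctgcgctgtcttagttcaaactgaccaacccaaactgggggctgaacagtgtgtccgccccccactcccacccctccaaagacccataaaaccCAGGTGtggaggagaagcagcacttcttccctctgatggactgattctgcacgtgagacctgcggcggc
Snai1, chr2:167537945-167538244, plus strand: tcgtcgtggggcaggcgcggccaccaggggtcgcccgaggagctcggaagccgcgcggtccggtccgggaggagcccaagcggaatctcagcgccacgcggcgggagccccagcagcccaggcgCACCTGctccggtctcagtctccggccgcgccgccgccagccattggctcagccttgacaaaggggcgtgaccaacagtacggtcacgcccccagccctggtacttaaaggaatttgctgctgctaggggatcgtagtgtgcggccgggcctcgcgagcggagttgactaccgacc
Vim, chr2:13574061-13574360, plus strand: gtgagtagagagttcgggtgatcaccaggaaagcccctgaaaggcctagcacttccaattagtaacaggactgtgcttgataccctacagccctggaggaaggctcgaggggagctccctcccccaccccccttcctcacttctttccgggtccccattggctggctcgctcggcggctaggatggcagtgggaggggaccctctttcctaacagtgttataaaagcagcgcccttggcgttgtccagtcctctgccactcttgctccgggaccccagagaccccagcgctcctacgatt

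The Epcam window held 2 matches, the Snai1 window 1 and the Vim window 0. Of all 32851 promoter windows of this length, 20.2% held at least 1 match and 2.88% at least 2. A match describes letters in the window and not binding. The 4 Zeb2 windows and the Twist1 window held 0 matches, and Cdh1, Cdh2, Fn1, Snai2 and Zeb1 had no entry in the table.

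Across progression, Zeb2, Vim and Zeb1 rose in disseminated cells over both primary tumor stages, and Snai1 fell in metastases and disseminated cells below carcinoma. Neither Cdh1 nor Epcam was called in any of the 6 comparisons between progression groups. In disseminated cells against adenoma, 3 of 10 members were called higher and 0 lower, where 4.64% of all genes were called higher and 5.84% lower. In disseminated cells against carcinoma, 3 of 10 were called higher and 1 lower, beside 5.48% and 6.11% of all genes. In metastases against carcinoma, 3 of 10 were called higher and 1 lower, beside 4.74% and 5.34% of all genes. Without carcinoma replicate 6 the number called was again 4 in each of these comparisons with carcinoma.

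In metastases against adenoma, 2 of 10 members were called higher and 3 lower, with 6.07% and 8.51% of all genes. In carcinoma against adenoma, 0 were called higher and 1 lower, with 1.16% and 2.14% of all genes. Between metastases and disseminated cells no member was called in limma, beside 3.44% of all genes called higher and 3.67% called lower in metastases. An unadjusted limma p below 0.05 was found for 4 of 10 members (Cdh1, Epcam, Vim and Zeb2), beside 7748 of 28783 genes. The median log2 change of the 10 members ran from −0.61 in disseminated cells against adenoma to 0.33 in metastases against carcinoma, and the median of all genes lay between −0.07 and 0.07 in the 6 comparisons. The comparisons share groups and are not independent of each other.

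**Figure D1:**
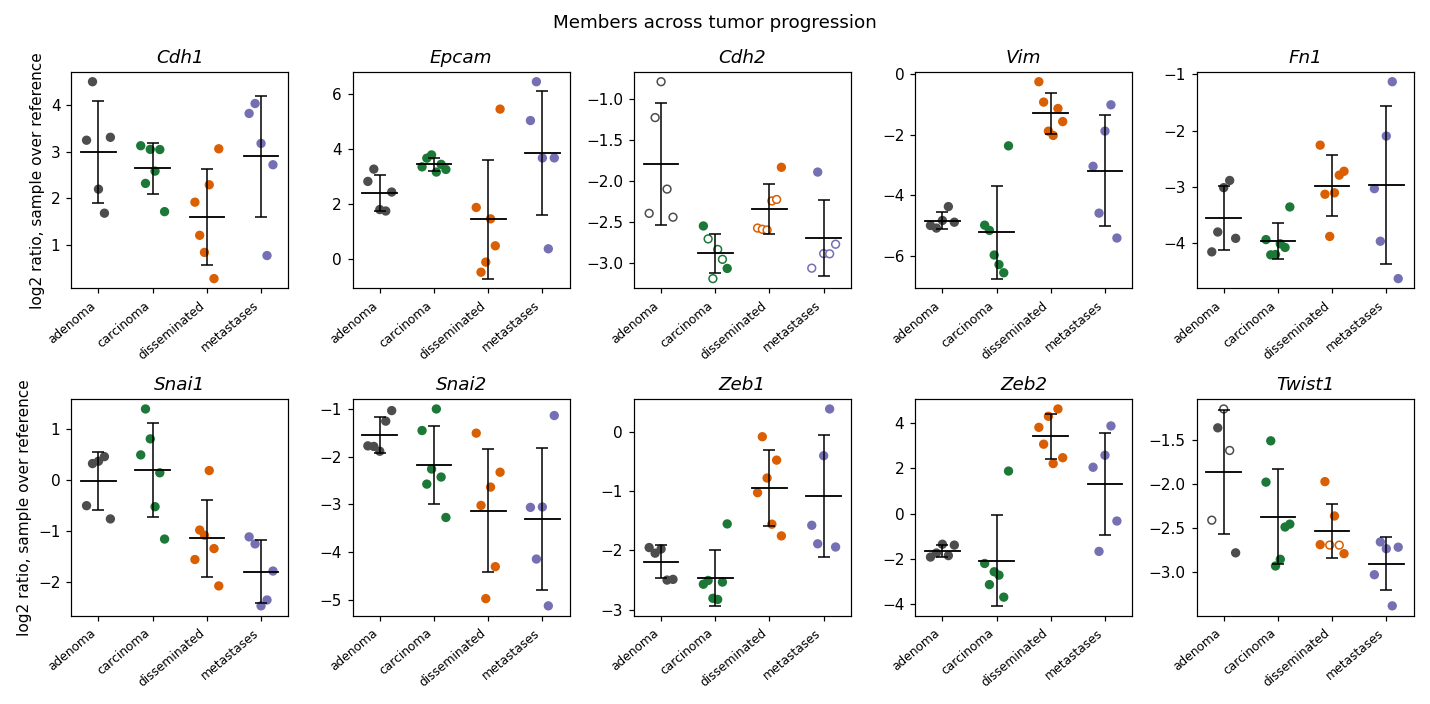
Log2 ratio of sample over reference (y axis) for the 10 members in the 4 progression groups (x axis). Each point is 1 array, open where the sample channel was not well above background, and lines with bars give the mean and SD. Zeb2 was at least 2.21 in all 6 samples of disseminated cells and at most −1.36 in all 5 adenomas.

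**Figure D2:**
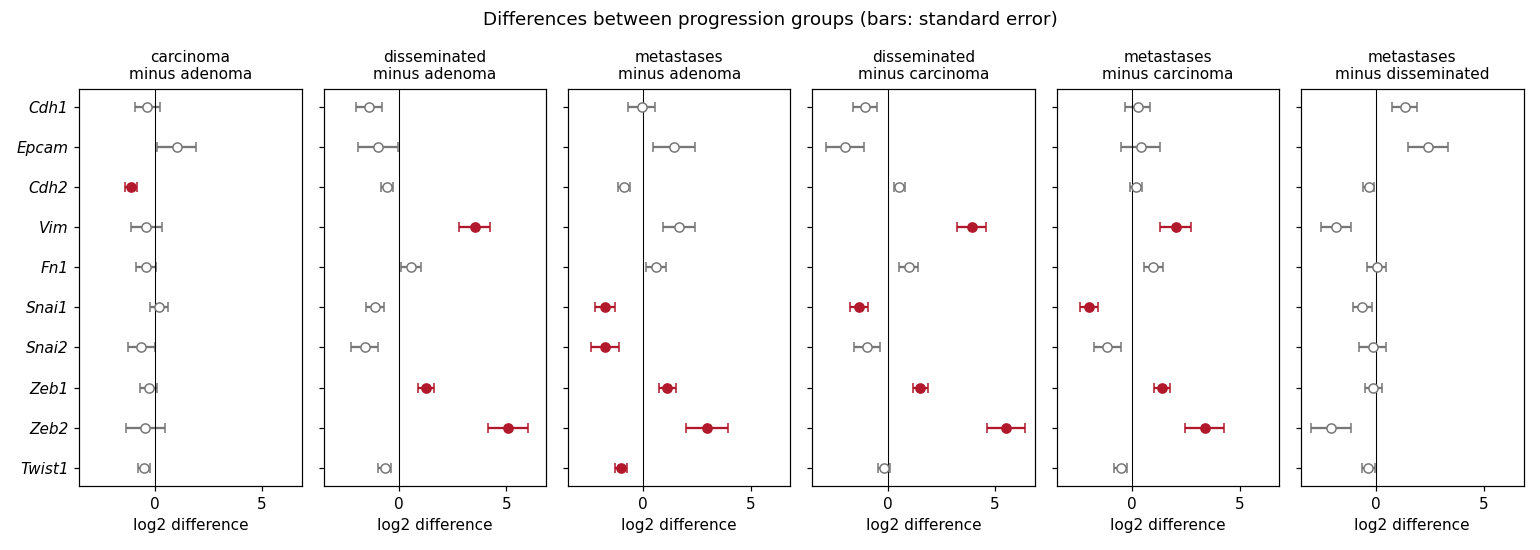
Log2 difference between groups (x axis) of the 10 members (y axis) in the 6 progression comparisons, with bars for the standard error. Filled red points passed both thresholds: 3 of them lay right of 0 in disseminated cells against adenoma, and there were 0 in metastases against disseminated cells.

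Among the adhesion genes, Cdh1 (probe at chr8:105268557-105268616 in mm7, the build of the array files) was well above background on every array and was read from 10 spots, whose SD within an array had a median of 0.17. It stood at 3.24, 4.50, 2.19, 1.67 and 3.31 in the 5 adenomas, and from 1.71 through a median of 2.81 to 3.13 in carcinoma. In disseminated cells it ran from 0.27 through 1.56 to 3.06, and in metastases it was 3.82, 4.03, 3.18, 0.76 and 2.72. The groups overlapped, and the lowest values belonged to disseminated replicates 5 and 3 and to metastases replicate 4.

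The mean of Cdh1 in disseminated cells, 1.59 ± 1.02 (SD, n = 6), differed from that of adenoma by −1.39 (standard error 0.58, adjusted p = 0.0974) and from that of carcinoma by −1.04 (adjusted p = 0.178). Metastases differed from carcinoma by 0.27 (95% confidence interval −0.95 to 1.49). The difference from adenoma passed both thresholds without disseminated replicate 6, the sample with the most Cdh1, and with a background offset of 0. Without that sample the difference from adenoma was −1.69 (adjusted p = 0.0437). Within slides, disseminated cells differed from adenoma in Cdh1 by 0.03 on slide 4, −0.45 on slide 6 and −3.36 on slide 5. The difference from carcinoma passed both thresholds with Agilent's processed signals.

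Epcam, a surface adhesion protein of epithelial cells, was even in carcinoma and uneven in the lungs. It stood at 2.83, 3.28, 1.81, 1.76 and 2.45 in adenoma, and from 3.17 through 3.41 to 3.80 in carcinoma. In disseminated cells it ran from −0.46 through 0.98 to 5.46, and in metastases it was 5.05, 6.46, 3.68, 0.39 and 3.69. The SD between samples was 2.16 in disseminated cells and 2.25 in metastases, against 0.24 in carcinoma. The mean of Epcam in carcinoma exceeded that of adenoma by 1.03 (adjusted p = 0.505). That difference was called with the groups compared alone and with the methods' t-test.

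In 5 of 6 samples of disseminated cells Epcam lay below every carcinoma, and replicate 6 lay above every carcinoma. The mean difference of disseminated cells from carcinoma, −1.997 (standard error 0.88, adjusted p = 0.0990), was not called, but without disseminated replicate 6 it was −2.80 (adjusted p = 0.00734). Against metastases, disseminated cells had a mean lower by a log2 value of 2.39 (adjusted p = 0.0933), which passed the thresholds without disseminated replicate 6 or metastases replicate 4 and with the replicate block. Metastases replicate 4 had the least Epcam and the least Cdh1 of its group, and disseminated replicate 6 the most of both in its group. From adenoma, Epcam in disseminated cells differed by −0.97 (adjusted p = 0.491). Within slides that difference was 1.38 on slide 4, −1.31 on slide 6 and −2.67 on slide 5.

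Cdh2, the cadherin that replaces E-cadherin in the textbook form of the transition, was near background in all groups. Its best probe was well above background on 0 of 5 arrays of adenoma, 2 of 6 of carcinoma, 1 of 6 of disseminated cells and 1 of 5 of metastases. Its log2 ratio was −2.40, −1.23, −0.80, −2.10 and −2.44 in adenoma and ran from −3.19 through −2.89 to −2.55 in carcinoma. The ratio was called lower in carcinoma than in adenoma, by −1.09 (adjusted p = 0.0130), and the groups did not overlap.

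Because no adenoma gave a Cdh2 signal well above background, that call compares values which are only bounds, and no fold is given. It was lost without adenoma replicate 2 or 3, and the other 2 probes of Cdh2 moved by 0.12 and 0.02. With probes of low signal left out, Cdh2 was not tested.

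Vim, the intermediate filament of mesenchymal cells and of leukocytes (probe at chr2:13521763-13521822 in mm7), rose in the disseminated samples. Its log2 ratio was −4.99, −5.08, −4.83, −4.37 and −4.88 in adenoma and ran from −6.55 through −5.56 to −2.37 in carcinoma. In disseminated cells it ran from −2.03 through −1.36 to −0.26, and in metastases it was −3.04, −4.59, −1.89, −1.02 and −5.40. Every disseminated sample lay above every adenoma and every carcinoma, whereas metastases spread over the range of both.

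Disseminated cells had 11.5-fold more Vim signal than adenoma (log2 change 3.53, standard error 0.71, adjusted p = 0.00273) and 15.0-fold more than carcinoma (3.91, standard error 0.68, adjusted p = 0.000523). Without carcinoma replicate 6, which at −2.37 was the highest carcinoma, the latter difference was 4.48. Metastases exceeded carcinoma by 2.03 (standard error 0.71, adjusted p = 0.0470), with overlapping groups, and adenoma by 1.64 (adjusted p = 0.107).

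The call of Vim between metastases and carcinoma was a narrow one. It was lost without any one of carcinoma replicates 1 to 5 or metastases replicates 1, 3 and 4, and was kept without carcinoma replicate 6 (2.60, adjusted p = 0.00416). Within slides, where these groups could be compared, metastases exceeded carcinoma by 2.07 on slide 1 and 3.44 on slide 2. On slide 3, which held metastases replicate 2 and carcinoma replicates 5 and 6, the difference was −0.13. With slide as a block the change was again 2.03, with an adjusted p of 0.0666. Disseminated cells exceeded adenoma by 3.35 to 3.76 on each of their 3 shared slides.

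A second Vim probe was well above background only in 5 of 6 samples of disseminated cells and 1 of 5 of metastases. It was called higher in disseminated cells than in adenoma, by 1.22, and than in carcinoma, by 1.42, which is less than the main probe. Between metastases and carcinoma it differed by 0.09. It was called lower in metastases than in disseminated cells, by −1.33 (adjusted p = 0.0392 over all probes), where the main probe differed by −1.88 (adjusted p = 0.0881).

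Fn1, the matrix glycoprotein fibronectin, was read from 10 spots that agreed closely (median SD between spots 0.03) and was called in no comparison. It stood at −4.17, −3.81, −3.02, −2.89 and −3.92 in adenoma and ran from −4.22 through −4.05 to −3.36 in carcinoma. In disseminated cells it ran from −3.89 through −2.95 to −2.26, and in metastases it was −3.04, −3.98, −2.10, −1.13 and −4.64. Metastases held both the lowest and the highest value of the 22 arrays.

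The mean of Fn1 was higher than in carcinoma by 0.99 in disseminated cells (adjusted p = 0.102) and by 0.998 in metastases (adjusted p = 0.129). The latter was called without metastases replicate 5. The other 2 Fn1 probes lay elsewhere in the gene and did not follow, with differences of 0.09 and −0.03 in disseminated cells and of −0.24 and −0.19 in metastases. Against adenoma these probes were lower in metastases by −0.75 and −0.84 (adjusted p = 0.00623 and 0.00436), changes of less than 2-fold, where the main probe was higher by 0.59 (adjusted p = 0.392). The direction of Fn1 therefore depended on the probe.

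Of the transcription factors, Zeb2 (probe at chr2:44994565-44994624 in mm7) gave the largest change of any member. It stood at −1.92, −1.75, −1.36, −1.86 and −1.39 in adenoma, and from −3.70 through −2.65 to 1.88 in carcinoma. Disseminated cells ran from 2.21 through 3.44 to 4.63, and metastases were at 2.05, −1.67, 2.58, 3.88 and −0.33. All 6 disseminated samples lay above all adenomas and carcinomas, and carcinoma replicate 6 alone of the carcinomas was above 0.

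Zeb2 was 33.7-fold higher in disseminated cells than in adenoma (log2 change 5.07, standard error 0.92, adjusted p = 0.00145) and 45.1-fold higher than in carcinoma (5.49, standard error 0.88, adjusted p = 0.000273). Metastases exceeded carcinoma by 3.38 (adjusted p = 0.0129) and adenoma by 2.96 (adjusted p = 0.0262), and both pairs overlapped. Without carcinoma replicate 6, Zeb2 exceeded carcinoma by 6.29 in disseminated cells (adjusted p = 1.06e-05) and by 4.17 in metastases (adjusted p = 0.000641). The call over adenoma was lost without metastases replicate 1, 3 or 4.

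All 4 Zeb2 probes were called higher in disseminated cells than in adenoma and in carcinoma, but the size of the change depended on the probe. The other probes rose by less than the main one, by 1.47 to 4.46 over adenoma and 1.55 to 3.94 over carcinoma. Only the probe with the highest signal was called in metastases, where the others differed from carcinoma by 0.90 to 1.38. Within slides metastases exceeded carcinoma by 4.06 and 5.35 on slides 1 and 2, and by −0.76 on slide 3. Disseminated cells exceeded adenoma by 3.997 to 6.04 on each shared slide.

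Zeb1, the other Zeb factor, moved in the same comparisons by less. It stood at −1.95, −2.05, −1.98, −2.50 and −2.49 in adenoma, and from −2.83 through −2.55 to −1.55 in carcinoma. Disseminated cells ran from −1.75 through −0.90 to −0.08, and in metastases it was −1.58, −1.89, −0.40, 0.39 and −1.94. Every disseminated sample and every metastasis lay above every adenoma.

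The rise of Zeb1 over carcinoma was 1.52 in disseminated cells (adjusted p = 0.00456) and 1.38 in metastases (adjusted p = 0.0135), and over adenoma 1.25 (adjusted p = 0.0250) and 1.11 (adjusted p = 0.0418). Without carcinoma replicate 6 the rises over carcinoma were 1.71 and 1.57. The rise over adenoma was lost in disseminated cells without adenoma replicate 4 or 5 or disseminated replicate 2 or 5, and in metastases without adenoma replicate 2, 3, 4 or 5 or metastases replicate 3 or 4. Within slides metastases exceeded carcinoma by 1.497, 2.10 and 0.16, and disseminated cells exceeded adenoma by 0.84 to 1.64.

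Snai1, which encodes Snail (probe at chr2:167283227-167283286 in mm7), was lowest in metastases. It stood at −0.50, 0.32, 0.37, 0.46 and −0.76 in adenoma, and from −1.16 through 0.32 to 1.40 in carcinoma. Its values ran in disseminated cells from −2.08 through −1.22 to 0.19, and in metastases it was −1.12, −1.26, −2.47, −2.36 and −1.79. Every metastasis lay below every adenoma, and the lowest carcinoma was replicate 6.

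Snai1 fell by 1.99 in metastases below carcinoma (standard error 0.43, adjusted p = 0.00323) and fell by 1.77 below adenoma (adjusted p = 0.00611). Disseminated cells fell by 1.34 below carcinoma (adjusted p = 0.0210), a call lost without carcinoma replicate 2 or 3. From adenoma they differed by −1.12 (adjusted p = 0.0708). That difference was called without disseminated replicate 4 and with slide as a fixed block in limma (−1.24, adjusted p = 0.0445). Without carcinoma replicate 6 the differences from carcinoma were −2.26 in metastases and −1.61 in disseminated cells. The fall in metastases was present on each shared slide, with differences of −2.57, −2.39 and −0.75.

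Snai2, the factor Slug, ran from −1.88 to −1.03 in adenoma, −3.28 to −0.995 in carcinoma, −4.98 to −1.50 in disseminated cells and −5.13 to −1.13 in metastases. It was called lower in metastases than in adenoma by −1.76 (adjusted p = 0.0495), a call that was lost without any single adenoma and without metastases replicate 1, 2, 3 or 4. Twist1, a helix-loop-helix factor that also binds E-boxes, was called lower in the same comparison by −1.04 (adjusted p = 0.0128). It was well above background on only 2 of 5 arrays of adenoma and on all 5 of metastases, and this call was lost without adenoma replicate 2, 3 or 4 or metastases replicate 4. No other difference of Snai2 or Twist1 was called in the main fit. That of Snai2 was called in metastases against carcinoma without metastases replicate 5. In disseminated cells against adenoma it was called without disseminated replicate 1 and with slide as a fixed block in limma (−1.60, adjusted p = 0.0472).

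The genes with the profile most like Vim over the 22 progression arrays were Ly86 (r = 0.964), Naaa (0.963), Gpr137b (0.963), Apobec1 (0.961) and Adam8 (0.959), out of 11090 genes well above background on every array. Those most like Epcam were F11r (0.970), a tight junction protein, and Ripk4 (0.964), Fzd6, Lrig1 and Rbbp7 (0.924). For Cdh1 they were Tom1l1 (0.901), Sox4, Sectm1a, Bmpr1a and Tnik (0.897). These values describe arrays that share groups, slides and carcinoma replicate 6, and carry no test.

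Macrophage markers moved with Vim. The mean log2 ratio of 27 macrophage genes, among them the receptor Csf1r, the glycoproteins Cd68 and Adgre1, the lysozyme Lyz2 and the adaptor Tyrobp, lay between 0.09 and 0.68 in adenoma and between 3.30 and 4.82 in disseminated cells. In carcinoma it was at most 0.78 in 5 samples and 4.58 in replicate 6. In metastases it was 3.28, 0.65, 4.03, 4.80 and 1.23. From 20 to 27 of the 27 genes were well above background on each array, and none of the 5 named markers was dim on any array.

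The same samples were high for Vim and for these markers. Metastases replicates 1, 3 and 4, with list means of 3.28 or more, had Vim at −3.04, −1.89 and −1.02, whereas replicates 2 and 5 had −4.59 and −5.40. The carcinoma with the list mean of 4.58 had Vim at −2.37, and the other 5 carcinomas had at most −4.98. Zeb2 followed the order of the list mean in metastases, with 3.88 in replicate 4 and −1.67 in replicate 2. Vim departed from that order in replicates 2 and 5.

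**Figure D3:**
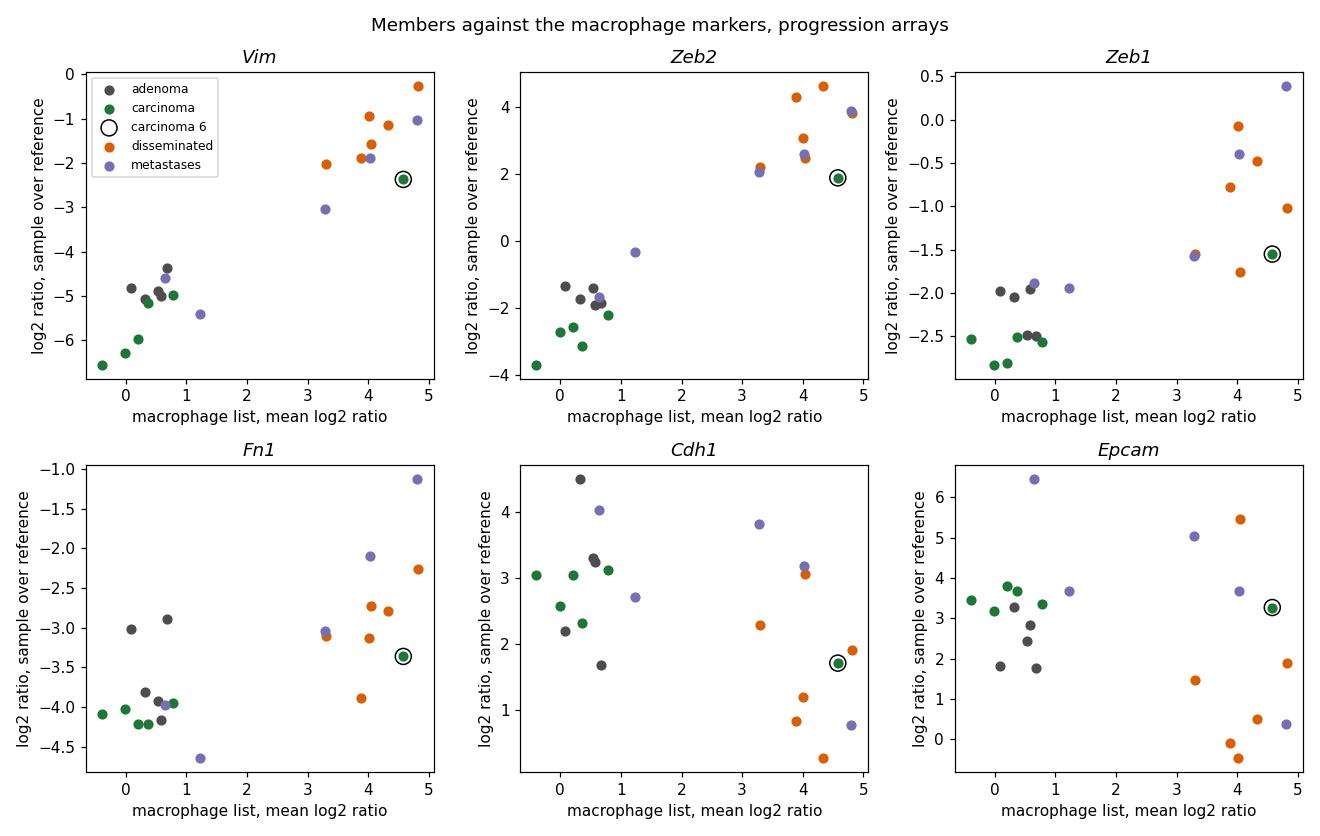
Log2 ratio of 6 members (y axes) against the mean log2 ratio of 27 macrophage markers (x axes) on the 22 progression arrays, colored by group, with carcinoma replicate 6 ringed. Vim and Zeb2 were high where the macrophage mean was 3.28 or more, and Epcam and Cdh1 spread widely there.

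Of the 27 macrophage genes, 24 were called higher and 0 lower in disseminated cells than in adenoma (median log2 change 3.57), 19 higher and 0 lower than in carcinoma (3.08), and 5 higher and 0 lower in metastases than in carcinoma (1.65). The shares of all genes called higher were 4.64%, 5.48% and 4.74%, in that order. Cd68 stood at −1.84 ± 0.12 (SD, n = 5) in adenoma, −0.62 ± 1.66 (SD, n = 6) in carcinoma, 2.21 ± 0.39 (SD, n = 6) in disseminated cells and 0.39 ± 2.05 (SD, n = 5) in metastases. Csf1r, Adgre1, Lyz2 and Tyrobp were likewise higher in disseminated cells than in adenoma on every array, with means of 4.21, 2.97, 6.35 and 4.62 in disseminated cells. The part of these cells in the values of Vim and Zeb2 cannot be told apart from that of the tumor cells in bulk RNA, where fewer cells of a type and less RNA per cell cannot be told apart either.

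With the macrophage mean as a covariate, Vim differed by 0.30 between disseminated cells and adenoma (adjusted p = 0.818), by 1.12 between disseminated cells and carcinoma (0.0560) and by 0.36 between metastases and carcinoma (0.452). Zeb2 kept its calls over carcinoma, with 1.91 in disseminated cells (adjusted p = 0.0182) and 1.24 in metastases (0.0383), and Snai1 stayed lower in metastases than in carcinoma, by −1.40 (0.0414). Without carcinoma replicate 6, the only carcinoma in the range of the disseminated samples, none of these was called with the covariate. Zeb2 then differed by 1.63 in disseminated cells (adjusted p = 0.271) and 1.04 in metastases (0.245), and Snai1 in metastases by −1.60 (0.122). Disseminated cells did not overlap adenoma, nor the other 5 carcinomas, in the macrophage mean, so that this fit extends beyond the measured range and cannot tell group and macrophage level apart.

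Within a group, the relation of Vim to the macrophage mean was computed in the 4 groups of 6 samples, and a correlation is given where those samples did not fall into separate clusters. In carcinoma 1 gap between neighbours took 76.3% of the range of the macrophage mean and in untreated tumors 61.5%, against 38.5% in disseminated cells and 43.8% in residual tumors, so no pooled correlation is given for carcinoma and untreated tumors. In both of these groups the order of the 6 samples by Vim was the same as their order by the macrophage mean. In untreated tumors Vim was −3.73, −3.28 and −4.12 in replicates 1 to 3, which had the higher macrophage means, and −5.84, −6.25 and −4.19 in replicates 4 to 6. In disseminated cells the Pearson correlation of Vim was 0.888 (n = 6, exact permutation test over pairings, two-sided p = 0.0194, adjusted p = 0.0556 over the 20 relations computed) and Spearman's rho 0.829 (exact permutation p = 0.0583, adjusted p = 0.130). Without the 2 samples farthest from the median of the list mean, Pearson's r was 0.559, so the relation rested in part on those samples.

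Zeb2 and Fn1 correlated with the list mean in disseminated cells at 0.577 and 0.627 (rho 0.486 and 0.771), and Cdh1 and Epcam at −0.205 and 0.0616 (rho −0.143 and 0.371), with exact permutation p from 0.160 to 0.879 for Pearson's r. None of the relations in disseminated cells passed 0.05 after adjustment.

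Markers of other cells also moved with the disseminated samples. Of 9 neutrophil genes measured, 8 were called higher than in carcinoma, of 13 endothelial genes 5, of 12 T and NK cell genes 5 and of 10 lung epithelial genes 5, with 1 of the last list called lower. Of all genes, 5.48% were called higher and 6.11% lower. The list means for neutrophils were 3.47 to 6.10 in disseminated cells and 1.95 to 4.003 in carcinoma. The 12 fibroblast markers had 0 called higher and 1 lower. The luminal keratins Krt8 and Krt18, taken here as markers of luminal tumor cells, fell by 3.21 (adjusted p = 0.0240) and 3.20 (adjusted p = 0.0146) in disseminated cells below carcinoma. Of 15 mammary epithelial genes, 2 were called lower, 0 higher and 13 not at all in this comparison (median log2 change −0.92). The part of these cells in the values of the 10 members was not tested.

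The wider pathway was described with lists of genes other than the members. Of 40 epithelial genes, 22 were called lower and 0 higher in disseminated cells than in adenoma (median log2 change −1.75), beside 5.84% of all genes called lower. Against carcinoma, 16 were called lower and 0 higher (−1.44), beside 6.11% of all genes called lower. The largest of the latter falls after the keratins was that of the tight junction protein Cldn7, by 2.58 (adjusted p = 0.00647). In metastases against carcinoma 2 of the 40 epithelial genes were called lower, the protease inhibitor Spint2 (−1.74) and the epithelial Ets factor Ehf (−1.54). The junction scaffold Tjp1 (1.70) was the 1 called higher. Of all genes, 5.34% were called lower and 4.74% higher in that comparison, so the 2 calls lower were near the share of all genes.

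Of 42 mesenchymal genes measured, 7 were called higher and 2 lower in disseminated cells than in carcinoma (median 0.15), and 4 higher and 3 lower in metastases (−0.37). Of all genes, 5.48% were called higher and 6.11% lower in disseminated cells, and 4.74% and 5.34% in metastases. The largest rises in disseminated cells were those of the gelatinase Mmp9 (3.999, adjusted p = 0.000588), S100a4 (3.62, adjusted p = 0.00531) and the cytoskeletal linker Msn (2.81, adjusted p = 0.000823), all of which leukocytes also make. In metastases the receptor kinase Axl (2.22, adjusted p = 0.0444) and the integrin Itgav (2.09, adjusted p = 0.0115) were among the genes that rose. The contractile and matrix genes went the other way in metastases, where Postn (−2.78), Cald1 (−2.55) and Acta2 (−1.27) fell, with no overlap between the groups for these 3 genes. Cald1 and Postn were also the 2 genes called lower in disseminated cells, by −2.15 and −1.63.

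Of 37 transition regulators, 6 were called higher and 2 lower in disseminated cells than in carcinoma (median 0.08), and 5 higher and 0 lower in metastases (0.01). The shares of all genes were 5.48% higher and 6.11% lower in disseminated cells, and 4.74% and 5.34% in metastases. The hypoxia factor Hif1a rose by 2.86 and 2.78, and the Hippo kinase Lats2 by 2.13 and 2.27, in disseminated cells and metastases. Tgfb1 rose by 2.27 in disseminated cells (adjusted p = 0.000159), with no overlap, while Tgfb3 and Tgfb2 fell by 1.87 and 1.70. The Notch ligand Jag1 rose by 1.45 in metastases (adjusted p = 0.00191).

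**Figure D4:**
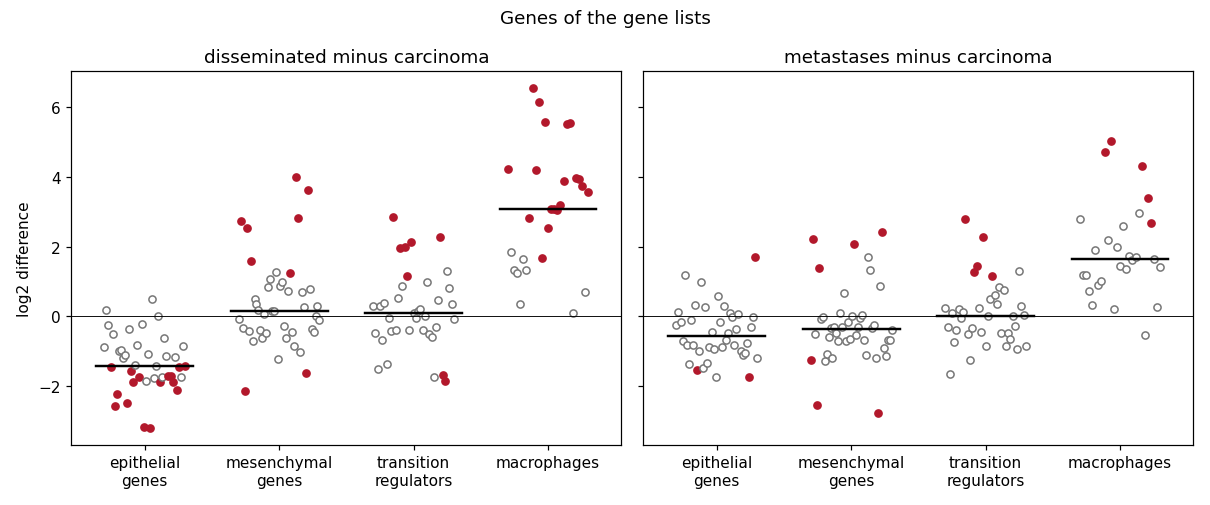
Log2 difference (y axes) of each gene of 4 lists (x axes) in disseminated cells and in metastases against carcinoma. Filled red points were called, and black lines give the median of a list, −1.44 for epithelial genes and 3.08 for macrophage genes in disseminated cells.

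Across chemotherapy, none of the 10 members passed the test between untreated, residual and relapsed tumors. In limma 0 of 10 were called in each of the 3 comparisons, and 0 had an unadjusted p below 0.05. An unadjusted p below 0.05 was found for 2615 of 28783 genes between residual and untreated tumors. It was found for 2203 genes between relapsed and untreated tumors and for 2235 between relapsed and residual tumors. Few genes of any kind were called, with 0.101% of all genes between residual and untreated tumors, 0.00347% between relapsed and untreated tumors and 0.205% between relapsed and residual tumors. All groups overlapped for all members.

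Cdh1 ran from 5.06 through a median of 5.76 to 6.34 in untreated tumors and from 5.37 through 6.11 to 6.87 in residual tumors, and was 5.83, 6.34, 6.55 and 5.27 in relapsed tumors. Residual tumors differed from untreated tumors by 0.45 (95% confidence interval −0.17 to 1.07). Epcam was even throughout, from 3.96 to 4.39 in untreated, 3.69 to 4.56 in residual and 3.95 to 4.47 in relapsed tumors. Its differences lay between −0.04 and 0.04, with intervals from −0.33 to 0.36. A change of Epcam as large as 2-fold was outside all 3 intervals, which take no account of slide.

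Vim varied more between tumors of a group than between groups. It ran from −6.25 through −4.16 to −3.28 in untreated tumors and from −6.15 through −4.85 to −4.30 in residual tumors, and was −5.40, −4.38, −3.60 and −5.05 in relapsed tumors. Residual tumors differed from untreated tumors by −0.34 (95% confidence interval −1.38 to 0.69) and relapsed tumors by −0.04 (−1.20 to 1.12), so changes of 2-fold remained within these intervals.

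Snai1 had the largest difference of any member in this experiment. It ran from −0.93 through −0.50 to −0.19 in untreated and from −1.34 through −0.32 to 1.26 in residual tumors, and was −1.36, −0.76, −1.10 and −0.64 in relapsed tumors. Relapsed tumors differed from residual tumors by −0.73 (standard error 0.36, adjusted p = 0.662). Zeb2 differed from untreated tumors by −0.39 in residual tumors (95% confidence interval −1.34 to 0.55) and by −0.69 in relapsed tumors (−1.75 to 0.37).

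The other members, Cdh2, Fn1, Snai2, Twist1 and Zeb1, differed by −0.31 (Cdh2 in residual against untreated tumors) to 0.10 (Snai2 in the same comparison). Fn1 stayed between −3.95 and −3.25 and Zeb1 between −2.85 and −1.98 over the 16 tumors, while Cdh2 was well above background in 7 of them.

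**Figure D5:**
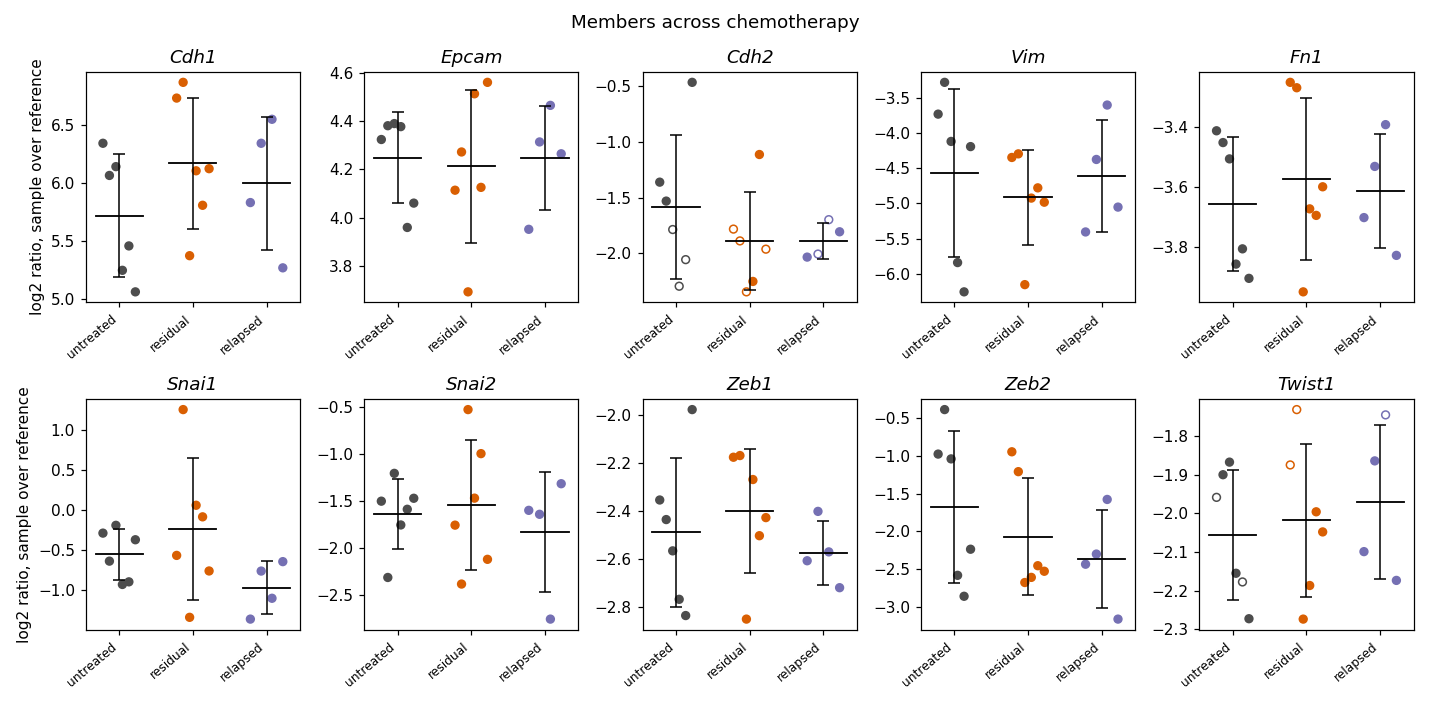
Log2 ratio of sample over reference (y axis) for the 10 members in untreated, residual and relapsed tumors (x axis). Points are single arrays, open where not well above background, and lines with bars give the mean and SD. The 3 groups overlapped for every member.

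The macrophage markers were measured in these tumors as well. The list mean was 1.65, 1.98 and 1.36 in untreated replicates 1 to 3 and −0.33, −0.42 and −0.12 in replicates 4 to 6, 0.74 and 1.28 in residual replicates 1 and 2 and below 0 in the other 4, and from −0.78 to 0.54 in relapsed tumors. Zeb2 in untreated tumors was −0.98, −0.39 and −1.04 in the first 3 replicates and −2.58, −2.86 and −2.24 in the others, and the residual tumors with the highest Zeb2, −0.95 and −1.21, were replicates 1 and 2. Untreated replicate 1 shared a slide with residual replicates 1 and 2, so that part of this split cannot be told apart from slide. None of the 27 macrophage genes was called in the 3 comparisons.

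In residual tumors Vim correlated with the macrophage mean at r = 0.747 (n = 6, exact permutation test, two-sided p = 0.0931, adjusted p = 0.143; rho 0.829, exact permutation p = 0.0583, adjusted p = 0.130), and at 0.575 without the 2 farthest samples. Zeb2, Fn1 and Cdh1 had r of 0.921, 0.908 and 0.889 there (exact permutation p = 0.0375, 0.0139 and 0.0181, adjusted p = 0.0938, 0.0556 and 0.0556; rho 0.886, 0.886 and 0.943), and Epcam 0.0956 (rho 0.257, exact permutation p = 0.836 for r). Without the 2 farthest samples Cdh1 had r = 0.446 and Fn1 0.668. Cdh1 thus had a value above that of Vim and below those of Zeb2 and Fn1. The 2 samples left out, residual replicates 1 and 2, shared a slide with each other and not with the other residual tumors.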

How the data were processed

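RNA of GFP-sorted cells was hybridised to 2-colour Agilent mouse arrays, 22 in the progression experiment and 16 in the chemotherapy experiment, with the sample in Cy5 and a Universal mouse reference in Cy3. RNA of the progression experiment was amplified in 2 rounds and that of the chemotherapy experiment was not, so each experiment was normalized and tested by itself. The authors deposited scanner files of Agilent Feature Extraction 10.7, whose intensities per spot were used here, as the mean signal of each channel with its median local background. They also deposited a table of normalized log2 ratios, which served as an alternative (r of at least 0.966 with the ratios computed here in the progression experiment and 0.995 in the chemotherapy experiment) and of which 0 columns belonged to no sample. Precision was limited by the number of arrays and by signal over background.

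Background was corrected with normexp (offset 50), ratios were normalized by loess within and quantiles between arrays of an experiment, control spots were left out and spots of a probe were averaged (R 4.3.3, limma 3.58.1, statmod 1.5.0). Gene names came from RefSeq accessions for 23075 probes and from the files for 18099. The probe with the highest mean signal stood for a gene. Limma was fitted with all groups of an experiment, with Benjamini-Hochberg adjustment over 28783 gene names. Correlations were tested by exact permutation, two-sided. Groups came from the labels. Probe positions are in mm7 per the file headers.

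The members and gene lists were chosen with earlier results of these data known. Beside the 10 members, the text names the 5 genes most like Vim, Cdh1 and Epcam, the 3 largest rises and falls among called genes of 3 pathway lists in the comparisons of disseminated cells and metastases with carcinoma, 5 macrophage markers, and Krt8 and Krt18. A result that this rule selects is not reported here. Alternatives were another offset, Agilent's processed signals, other normalizations, the deposited ratios, a filter on dim probes, the mean of probes, slide or replicate blocks, the groups compared alone, the methods' t-test and leaving out each sample. A macrophage covariate with and without carcinoma replicate 6 and a list of alveolar macrophages were among the alternatives as well. The statistics were tested on simulated data.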

Additional observations from a re-analysis of the deposited data

Results flagged for a closer look

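In the 70 sets of 1 member in 1 group, 5 values, from 3 samples, lay far from the rest of their group by Dixon's test, where chance alone gives about 1 in 20 sets. In carcinoma replicate 6, Zeb2 was 1.88 against −2.21 in the nearest other carcinoma, Zeb1 was −1.55 against −2.51, and Fn1 was −3.36 against −3.95. The mean of the macrophage markers in that sample, 4.58, was also far from the next carcinoma at 0.78. Vim in residual replicate 3 was −6.15, with the nearest residual tumor at −4.98. Cdh2 in metastases replicate 2 was −1.89, with the nearest metastasis at −2.77, in a group where 1 of 5 arrays gave a Cdh2 signal well above background.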

How the results depend on the processing

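Of 1122 recomputed values of called members and list genes, 915 kept their call, 199 lost it and 8 changed sign. Of 1897 values of genes not called, 28 were called under an alternative. The 3 chemotherapy comparisons had 0 members called under every alternative run. In carcinoma against adenoma, the 1 call became 0 with processed signals, median centring, Aquantile, no normalization between arrays, all 38 arrays together, dim probes left out or the mean of probes, 2 with the groups compared alone (Epcam added), and 0 to 1 when a sample was left out. With the methods' t-test Epcam was called in place of Cdh2. In disseminated cells against adenoma, the 3 calls became 5 with slide as a fixed block (Snai1 and Snai2 added) and 4 with an offset of 0 (Cdh1 added). They became 2 with Aquantile or no normalization between arrays (Zeb1 lost), and 2 to 4 when a sample was left out. In metastases against adenoma, the 5 calls became 3 with processed signals, median centring, Aquantile, no normalization between arrays, all 38 arrays together, the mean of probes, slide as a random block or the groups compared alone, 1 with the methods' t-test, and 1 to 6 when a sample was left out (1 without metastases replicate 4, 6 without metastases replicate 5, 2 without metastases replicate 3 or adenoma replicate 2, 3 or 4, and 3 without metastases replicate 1). In metastases against carcinoma, the 4 calls became 2 with the mean of probes or the groups compared alone, 1 with the methods' t-test, and 3 to 6 when a sample was left out (6 without metastases replicate 5). The call of Vim in metastases against carcinoma was also lost with Aquantile, no normalization between arrays, all 38 arrays together or slide as a fixed block. In disseminated cells against carcinoma, the 4 calls became 3 to 5 when a sample was left out. Snai1 was lost there with the groups compared alone and with the methods' t-test, and Cdh1 was added with processed signals. Between metastases and disseminated cells, the 0 calls became 1 with the mean of probes (Vim), and 0 to 4 when a sample was left out (4 without metastases replicate 4, 1 without disseminated replicate 6).

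With the macrophage covariate, members called were 0 in disseminated cells and 0 in metastases against adenoma, 1 and 2 in the same groups against carcinoma, and 0 in all 4 without carcinoma replicate 6. Zeb1 in disseminated cells against adenoma became −0.031 with the covariate. With the covariate and without carcinoma replicate 6, Vim became −0.12 and Zeb1 −0.43 in disseminated cells against adenoma. Against carcinoma Zeb1 became −0.085, Krt8 0.018, Cldn7 0.12 and Tgfb2 0.011 in disseminated cells, and Vim −0.031 in metastases. The covariate nearly separated these groups, and its alternative without carcinoma replicate 6 was chosen after seeing the data. The cause of the other changes was not tested.

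Replicate numbers did not pair the samples, since same-numbered samples had deviations that correlated at −0.41 to 0.42. With the replicate block, the members called were 1, 2 and 3 in carcinoma, disseminated cells and metastases against adenoma, 4 and 4 in disseminated cells and metastases against carcinoma, and 1 (Epcam) between metastases and disseminated cells. The correlation of Vim with the macrophage mean passed the adjusted threshold under no alternative list or scaling, in disseminated cells or residual tumors, the groups for which a correlation is given. The number of arrays and a signal near background, as for Cdh2, limit what could be measured.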

Other observations

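Of 40 epithelial genes outside the 10, 35 had a higher mean in metastases than in disseminated cells (median log2 difference 0.87), and 3 were called higher and 0 lower, where 3.44% of all genes were called higher. In the same comparison 5 of 42 mesenchymal genes were called lower and 1 higher (−0.69), beside 3.67% of all genes called lower. Against adenoma, 13 mesenchymal genes were called lower and 2 higher in metastases (−0.78), and 5 of 12 fibroblast markers were called lower and 0 higher (−1.34). Of all genes, 8.51% were called lower and 6.07% higher there. The mean of the fibroblast markers ran from −4.01 to −2.64 in metastases and from −2.68 to −1.42 in adenoma.

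Of 11 alveolar macrophage genes measured, 8 were called higher and 1 lower in disseminated cells than in carcinoma (median 2.68), and 4 higher and 0 lower in metastases (0.79). The shares of all genes called higher were 5.48% and 4.74%. The mean of 15 mammary epithelial genes ran from 0.56 to 3.19 in disseminated cells and from 0.62 to 3.35 in metastases, against 3.13 to 3.49 in adenoma.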
